A study of Pleurotus ostreatus with 32 samples.

Results

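Early cap genes of the oyster mushroom Pleurotus ostreatus were described here: 217 genes of the 10755 in the deposited expression table that were higher in cap than in stipe both in stage 3 primordia and in young fruiting bodies. They were chosen on the deposited log2 FPKM values (fragments per kilobase of gene model, scaled to the fragments of the library, on a log2 scale). The lower of the stage 3 and young cap means had to be at least 1 above the higher of the stage 3 and young stipe means, and the mean raw count had to reach 100 in both caps, which 8283 genes did. Cap against stipe in these 2 stages therefore chose the genes and is described below without a test. The mature tissues, stage 1 primordia and mycelium had no part in the choice, and their levels were compared by tests.

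All libraries came from the dikaryotic strain N001, in which each cell carries a pair of unlike nuclei, grown per the labels as bagged spawn with no treatment or genetic change named. The groups used to choose the genes were caps and stipes of stage 3 primordia and of young fruiting bodies. The fruiting body, called mature here, gave skin, lamellae, a tissue labelled dedifferentiated cap, cap and stipe, and the earlier groups were stage 1 primordia, with no tissue named, and vegetative mycelium. There were 2 libraries of dedifferentiated cap and 3 of each other group, and per the labels each replicate pooled tissue from 3 to 8 fruiting bodies, with nothing said of how this applies to mycelium. The labels do not say whether the caps of any stage were sampled with their skin and lamellae, nor how the dedifferentiated cap was obtained. Total counts ran from 13544451 to 25873817 per library.

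A mushroom primordium is a compact knot of hyphae in which the cap and the stipe become visible as the tissue grows. The stipe lifts the cap, the lamellae under the cap carry the spore-forming cells, and a skin covers its upper surface. In the caps of a primordium and of a young body these layers are still being laid down. The gene numbers in the files are not paired with names, and 0 of them matched the reference gene list, which is of another strain's assembly. No gene product, tissue marker or sequence could therefore be given, and the labelled tissues could not be checked against marker genes.

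The genes differed widely in how far cap stood above stipe at the 2 early stages. The margin that chose them had a median of 1.56 log2 units (quartiles 1.2 and 2.18) and reached 7.11. It was at least 2 in 65 genes and at least 3 in 18. Every cap library lay above every stipe library in 179 of the genes in stage 3 primordia, against 11.3% of all genes tested. In young bodies this held for 204 of the genes, against 10.2% of all. In both stages together it held for 173 of the genes, against 4.34% of all. In the other 44 at least 1 library overlapped. These shares follow from the choice, and nothing is read from them.

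Gene 11153 had the largest margin, 7.11. Its FPKM was 26.6, 24.3 and 32.9 in stage 3 caps, against 0.271, 0.186 and 0.0350 in stage 3 stipes. In young bodies it was 37.9, 38.3 and 42.2 in caps, against 0.0292, 0.564 and 0.495 in stipes. Gene 2691 came next with a margin of 6.90, and its stage 3 caps held 0.683, 12.3 and 15.5 FPKM, so that the first of them was far below the others. The deposited table gives small positive FPKM values where a gene had few reads or none, so that the size of such margins depends on how the authors treated low counts. Just inside the limit were genes 10358 and 4904, with margins of 1.003 and 1.004. Genes 11878 and 4984 lay just outside it at 0.994 and 0.990.

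In bulk tissue, fewer cells of a type and less RNA per cell cannot be told apart, and this holds for every level below. As a description, the median FPKM over the 217 genes was 39.0 ± 5.47 in stage 3 caps, against 8.12 ± 2.54 in stage 3 stipes (mean ± SD over libraries, n = 3 each). It was 35.9 ± 4.05 in young caps, against 7.63 ± 3.02 in young stipes (n = 3 each). Among the stipes, stage 3 stipe replicate 3 with 11.1 and young stipe replicate 2 with 10.7 lay highest. At maturity the median was 30.4 ± 6.85 in skin and 19.0 ± 0.817 in lamellae. It was 20.3 ± 2.93 in the dedifferentiated cap (n = 2), 8.68 ± 0.975 in mature cap and 9.58 ± 1.07 in mature stipe. In the earliest groups it was 19.4 ± 4.79 in mycelium and 14.1 ± 5.20 in stage 1 primordia (n = 3 each).

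The libraries of skin ran from 25.0 to 38.1, those of lamellae from 18.4 to 19.9, and those of mature cap from 8.02 to 9.80, with no overlap between these tissues. Mature cap and mature stipe, at 8.36 to 10.3, did overlap. The share of all counts that fell on the 217 genes was, among the mature tissues, likewise lowest in mature cap and mature stipe: skin libraries held 3.26 to 4.09%, lamellae 2.61 to 2.71%, dedifferentiated cap 1.82 to 2.49%, mature cap 0.563 to 0.735% and mature stipe 0.652 to 0.761%. Stage 3 caps held 3.15 to 3.63%, against 0.589 to 0.867% in stage 3 stipes, and young caps 2.75 to 3.46%, against 0.376 to 0.797% in young stipes. Unlike the median, this share can rest on a few genes of high level. The highest mean of a single gene was 19938 FPKM in lamellae, 6830 in skin and 5101 in the dedifferentiated cap. It was 2876 in mature cap and 3253.5 in mature stipe. A mean of at least 1 FPKM was reached by 211 of the genes in skin and 209 in lamellae, and by 205 in the dedifferentiated cap, 191 in mature cap and 197 in mature stipe.

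**Figure D1:**
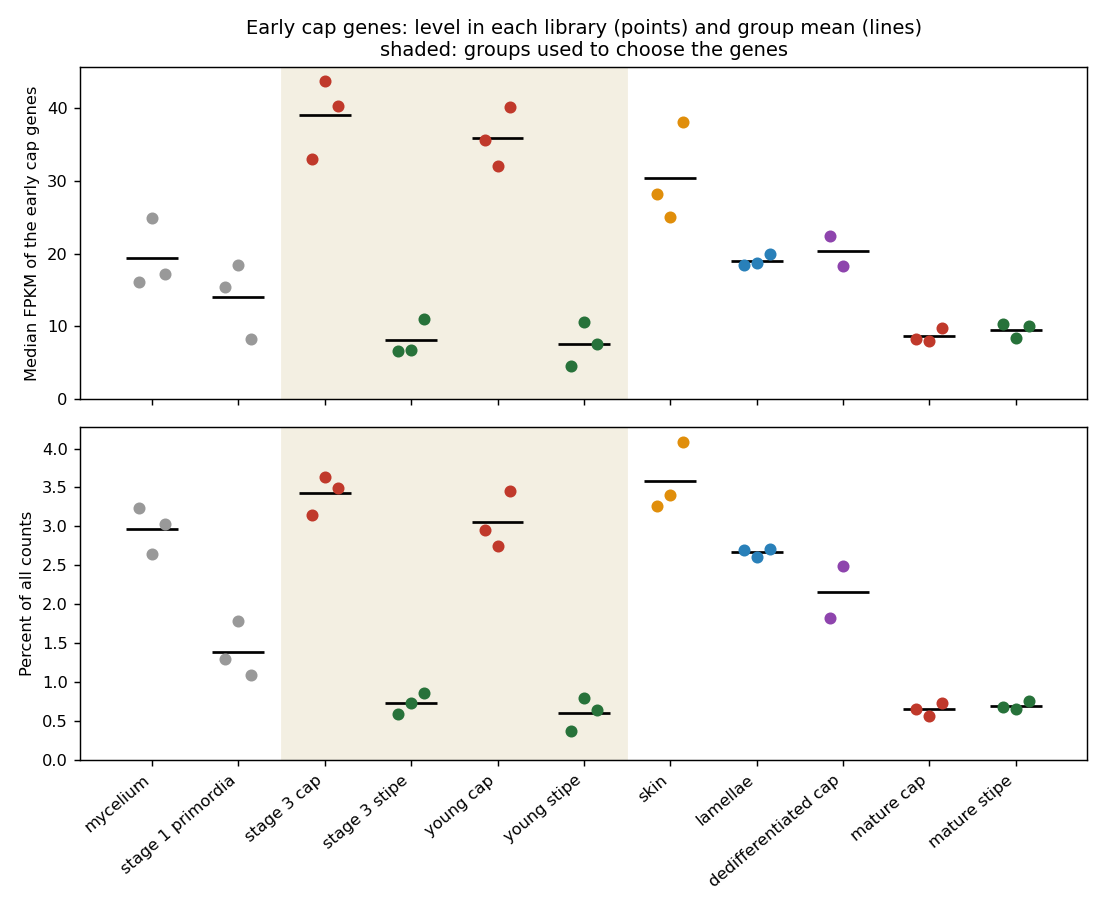
Median FPKM of the 217 early cap genes (upper panel) and the percent of all counts that fell on them (lower panel) in each library; points are libraries, lines are group means, and the shaded groups chose the genes. The 3 skin libraries sit at 25.0 to 38.1 FPKM, while the mature cap libraries sit at 8.02 to 9.80 beside the mature stipe at 8.36 to 10.3.

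Whether the genes were still higher in cap than in stipe at maturity was addressed first. Of the 217 genes, 4 were higher in mature cap than in mature stipe (1.84%, against 0.222% of the 10814 genes tested) and 5 were lower (2.30%, against 1.46%). The other 208 were not called; a call needed a change of at least 2-fold and an edgeR adjusted p below 0.05. The median log2 fold change of the 217 genes was -0.20 (quartiles -0.74 and 0.21), beside -0.02 over all genes tested, and 139 of the 217 had a negative value. Every mature cap library lay above every mature stipe library in 18 of the 217 genes (against 12.3% of all genes tested) and below in 48 (against 15.8%). All 217 genes entered this and every later test, since the choice itself required counts in the caps.

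Both counts were small and moved when single libraries were left out, and the count of lower genes fell whichever library was left out. The 4 higher genes became 2 without mature cap replicate 3, 1 without mature stipe replicate 2 and 0 without mature stipe replicate 1, where 9 genes had a positive value at an unadjusted p under 0.05 in edgeR and no other tool was run. The 5 lower genes became 1 without mature cap replicate 1 or 3, 2 without mature stipe replicate 1 or 2, and 3 when mature cap replicate 2, or replicate 3 of the stipe, was left out. Library size alone as the scaling gave 5 higher and 3 lower, the DESeq2 test 7 higher and 10 lower, and a fit to these 2 groups alone 11 lower. Among the 295 genes chosen, and the fit made, without stage 3 stipe replicate 3, 5 were higher and 8 lower.

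Gene 7413 had 264, 43.7 and 291 FPKM in mature caps, against 3.4, 3.25 and 9.34 in mature stipes. All caps lay above all stipes, and the middle replicate of the caps was the lowest of them. The log2 fold change was 5.25 ± 1.08 (SE; adjusted p = 0.00885 by edgeR with Benjamini-Hochberg correction, as for all adjusted p-values here), and the call was lost when stipe replicate 1 (adjusted p = 0.0871) or stipe replicate 2 (0.0703) was left out. Leaving out stipe replicate 3 gave a change of 5.95. Its counts were fractions in 17 libraries, which can come from reads shared with another gene, so this value is uncertain.

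Gene 8848 had 7.94, 7.81 and 48.2 FPKM in mature caps, against 2.47, 2.79 and 5.75 in mature stipes, and its log2 fold change was 2.55 ± 0.64 (edgeR adjusted p = 0.0365). The third cap library held most of that difference. Without it the change was 1.11 (adjusted p = 0.492), without stipe replicate 1 or 2 the adjusted p was 0.225 or 0.201, and a fit of these 2 groups alone gave 0.119.

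Gene 9252 was lower in mature cap, with 23.0, 14.8 and 21.6 FPKM, against 179, 180 and 54.0 in mature stipe. The groups did not overlap, and the log2 fold change was -2.80 ± 0.44 (edgeR adjusted p = 0.000739). Gene 7381 had 1.36, 3.53 and 5.85 FPKM in mature cap, against 28.9, 34.5 and 306 in mature stipe. Its log2 fold change of -5.11 ± 1.36 passed only narrowly (edgeR adjusted p = 0.0491). It became -3.16 without mature stipe replicate 3 (adjusted p = 0.219), and the call was also lost in each fit that left out another of the 6 libraries, with adjusted p from 0.0624 to 0.281. It was lost too with DESeq2 size factors (0.0521), library size alone (0.0557), no filter on low counts (0.0502), a fit of these 2 groups alone (0.0810) and the replicate block (0.0756). It was kept in the DESeq2 test (0.000728) and in the fit without stage 3 stipe replicate 3 (0.0396).

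Skin differed from mature cap in a large share of the genes. Compared with mature cap, 88 of the 217 genes were higher in skin (40.6%, against 3.33% of all genes tested) and 1 was lower (0.461%, against 1.07%). Among the 8283 genes that reached the same count in early caps, 3.26% were higher in skin. The median log2 fold change was 1.3 (quartiles 0.55 and 2.75), beside -0.01 over all genes tested, and 193 of the 217 genes had a positive value. In 154 of the 217 genes every skin library lay above every mature cap library, against 14.2% of all genes tested. In 5 every skin library lay below, against 13.7% of all. Leaving out any 1 of the 6 libraries left 70 to 80 genes higher and 1 lower.

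Compared with mature stipe, 90 genes were higher in skin (41.5%, against 4.35% of all genes tested) and 4 were lower (1.84%, against 4.99%). Over the 217 genes the median log2 fold change was 1.05 (quartiles 0.34 and 2.63), beside -0.01 over all genes tested, and 182 genes had a positive value. The libraries did not overlap, with skin above, in 145 of the 217 genes, against 20.0% of all genes tested. Skin lay below in 13, against 23.8% of all. Leaving out 1 library left 68 to 80 genes higher. The 4 lower genes became 1 without mature stipe replicate 1, skin replicate 2 or skin replicate 3, and 2 without mature stipe replicate 2 or skin replicate 1. When the genes were chosen without stage 3 stipe replicate 3 and the fit left it out, 38.0% of 295 genes were higher in skin than in mature cap and 35.9% were higher than in mature stipe.

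Gene 7539 had the largest change against mature cap. Against mature stipe it had the largest among genes that averaged at least 10 counts in both groups; genes 2691 and 11153, at or near 0 reads in mature stipe, had larger fitted values. Its FPKM was 6174, 2528 and 9986 in skin, against 4.42, 3.12 and 1.46 in mature cap and 18.6, 5.42 and 60.5 in mature stipe. All skin libraries thus stood far above both. The log2 fold change was 11.03 ± 1.48 against mature cap (edgeR adjusted p = 1.75e-05) and 7.79 ± 1.3 against mature stipe (adjusted p = 0.000231), the second being 9.03 without mature stipe replicate 3. Its level in early caps, 1032 to 6290 FPKM, overlapped that of skin, but stage 3 stipe replicate 3 held 3229 as well.

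Gene 6008 had 334, 174 and 475 FPKM in skin, against 1.54, 1.22 and 0.114 in mature cap, with no overlap. The log2 fold change was 8.44 ± 1.41 (edgeR adjusted p = 0.000281). At the early stages its stipes were uneven: stage 3 stipe replicate 3 held 79.3 and young stipe replicate 2 held 75.3, above most of the caps at 23.3 to 82.5. Gene 3710 had 221, 52.9 and 331 FPKM in skin, against 2.03, 1.94 and 1.89 in mature stipe, and its log2 fold change was 6.71 ± 1.3 (edgeR adjusted p = 0.00114). Its stage 3 libraries overlapped, with 1.73 in cap replicate 1 and 8.555 in stipe replicate 3. Its young caps, at 13.6 to 88.8, lay above its young stipes, at 0.651 to 6.02.

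The exceptions ran the other way. Gene 4629 was the 1 gene lower in skin than in mature cap, at 18.4, 11.2 and 13.3 FPKM in skin, against 51.9, 81.7 and 63.0 in mature cap and 96.0, 89.2 and 76.2 in mature stipe. Its log2 fold change was -2.20 ± 0.42 against mature cap (edgeR adjusted p = 0.0013) and -2.61 ± 0.43 against mature stipe (adjusted p = 0.000184). Gene 8330 had 25.4, 12.4 and 11.4 FPKM in skin, against 145, 115 and 87.4 in mature stipe. That change of -2.82 ± 0.79 (edgeR adjusted p = 0.0199) did not hold without mature stipe replicate 1 (0.0656), skin replicate 2 (0.0946) or skin replicate 3 (0.0946).

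**Figure D2:**
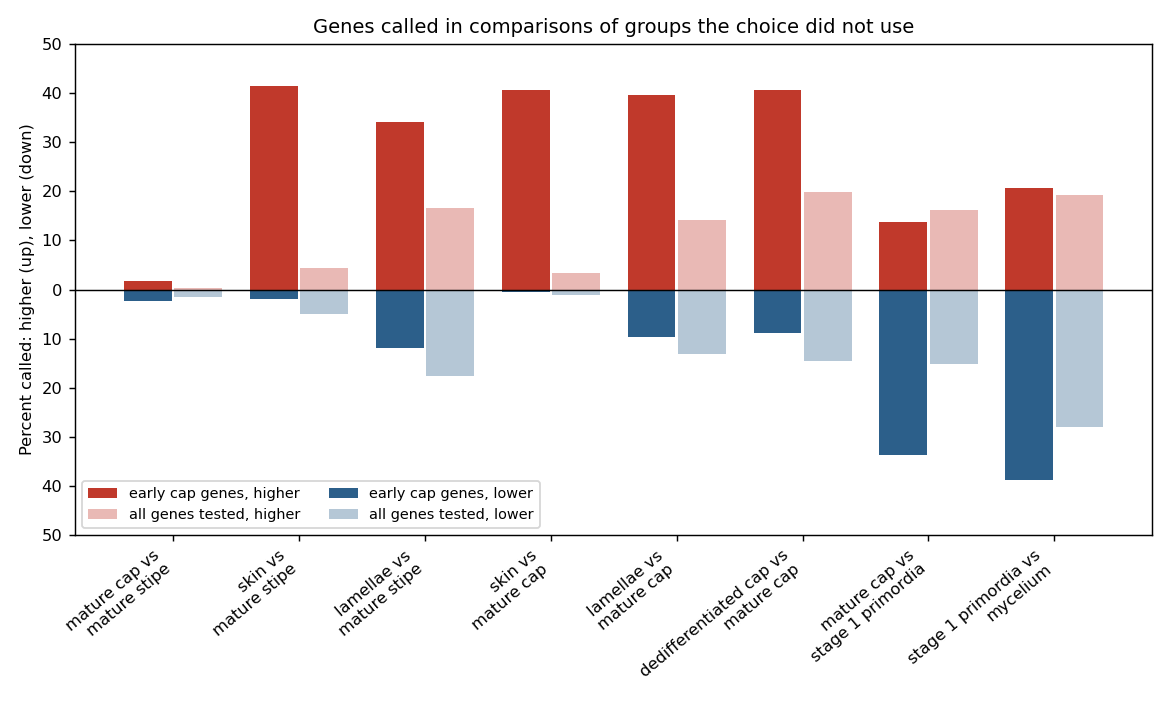
Percent of the 217 early cap genes (dark bars) and of all 10814 genes tested (pale bars) called higher (upward) or lower (downward) in each of the 8 comparisons. The early cap genes exceed all genes most in skin, with 40.6% against 3.33% higher than in mature cap, while in mature cap against mature stipe both bars stay under 3%.

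Lamellae, the spore-bearing plates, also held many of the genes at a raised level, but with more exceptions. Compared with mature cap, 86 genes were higher in lamellae (39.6%, against 14.1% of all genes tested) and 21 were lower (9.68%, against 13.2%). Over the 217 genes the median log2 fold change was 0.84 (quartiles -0.29 and 2.43), beside 0.01 over all genes tested. Compared with mature stipe, 74 were higher (34.1%, against 16.7%) and 26 were lower (12%, against 17.6%), with a median of 0.60 (quartiles -0.42 and 1.88) beside 0.00 over all genes. In 116 of the 217 genes every lamellae library lay above every mature cap library (against 26.3% of all genes tested), and in 35 below (against 24.6%). For lamellae and mature stipe these counts were 102 (against 29.2% of all genes) and 47 (against 31.1%). Without lamellae replicate 1 the 26 lower genes became 17. With library size alone as the scaling, 94 genes were higher and 14 lower than in mature stipe. Of the 295 genes chosen, with a fit, without stage 3 stipe replicate 3, 43.4% were higher than in mature cap and 37.6% higher than in mature stipe.

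Gene 6802 had 1103, 1295 and 2329 FPKM in lamellae, against 8.22, 3.08 and 1.09 in mature cap and 44.9, 7.78 and 3.17 in mature stipe. Lamellae lay above both in every library, and skin, with 16.2, 1.25 and 13.2, did not share this level. The log2 fold change was 8.58 ± 1.33 against mature cap (edgeR adjusted p = 1.84e-05) and 6.41 ± 1.21 against mature stipe (adjusted p = 0.000144). These became 9.57 without mature cap replicate 1 and 8.18 without mature stipe replicate 1.

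Gene 11705 reached 15657, 23124 and 21893 FPKM in lamellae, against 216, 11.7 and 7.43 in mature cap and 435, 234 and 50.5 in mature stipe. Its early caps held only 60.3 to 198, and early stipes overlapped them at both stages. Stage 3 stipe replicate 3 held 147, and young stipe replicate 2 held 133, above every young cap at 73.1 to 128. The log2 fold change was 8.02 ± 1.54 against mature cap (edgeR adjusted p = 0.000239), or 11.06 without mature cap replicate 1. It was 6.40 ± 1.43 against mature stipe (adjusted p = 0.000859), or 7.15 without mature stipe replicate 1.

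Among the genes lower in lamellae, gene 1596 had 4.73, 2.25 and 1.89 FPKM, against 39.4, 33.6 and 33.8 in mature cap and 22.4, 28.6 and 18.6 in mature stipe. Its groups did not overlap, and it was the largest fall against mature cap, at -3.59 ± 0.51 log2 units (edgeR adjusted p = 6.03e-06). Against mature stipe the value was -2.97 ± 0.50 (edgeR adjusted p = 3.78e-05). Gene 2685 had 87.9, 96.2 and 55.4 FPKM in lamellae, against 485, 660 and 565 in mature cap (log2 fold change -2.84 ± 0.40, edgeR adjusted p = 5.26e-06). Gene 10889 had 17.1, 22.0 and 33.1 in lamellae, against 240, 227 and 186 in mature stipe (log2 fold change -3.18 ± 0.77, edgeR adjusted p = 0.00175).

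In the dedifferentiated cap, compared with mature cap, 88 of the 217 genes were higher (40.6%, against 19.9% of all genes tested) and 19 were lower (8.76%, against 14.5%). Over the 217 genes the median log2 fold change was 0.82 (quartiles -0.28 and 2.67), beside -0.01 over all genes tested. In 116 of the 217 genes both dedifferentiated libraries lay above every mature cap library (against 31.5% of all genes tested), and in 34 below (against 30.3%). This comparison had 2 libraries on one side, and leaving out any 1 of the 5 libraries left 77 to 81 genes higher. A dedifferentiated library left on its own was taken to vary as the libraries of other groups did. When the genes were chosen, and the fit made, without stage 3 stipe replicate 3, 134 of 295 genes (45.4%) were higher.

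Gene 3710, high in skin, was also high here, at 361 and 350 FPKM in the dedifferentiated cap, against 1.11, 0.793 and 0.869 in mature cap. The 2 libraries were close to each other, and the log2 fold change was 8.61 ± 1.44 (edgeR adjusted p = 3.70e-05). Gene 3280 held 1487 and 7399 FPKM in the dedifferentiated cap, against 14.6, 21.1 and 18.6 in mature cap. Its log2 fold change was 7.94 ± 0.95 (edgeR adjusted p = 4.26e-07), or 8.75 without dedifferentiated cap replicate 1 and 6.37 without replicate 2. In early caps it held 96.4 to 497 FPKM, below both.

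Gene 5722 was lower, at 3.92 and 3.03 FPKM in the dedifferentiated cap, against 28.1, 36.8 and 62.5 in mature cap (log2 fold change -3.62 ± 0.56, edgeR adjusted p = 1.47e-05). Gene 2685 was lower as well, at 61.9 and 32.4 in the dedifferentiated cap beside the mature cap values given above (log2 fold change -3.60 ± 0.49, edgeR adjusted p = 2.62e-06). The comparisons of skin, lamellae and the dedifferentiated cap with mature cap share the mature cap libraries, and those of mature cap, skin and lamellae with mature stipe share the stipe libraries. They are therefore given side by side and not combined.

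Mature cap was also tested against stage 1 primordia, since the young caps had chosen the genes. Stage 1 primordia had no tissue named, so stage and tissue cannot be told apart in this comparison. As a description, the median FPKM of the genes was 14.1 in stage 1 primordia, against 8.68 in mature cap and 9.58 in mature stipe. It was 30.4 in skin, 19.0 in lamellae and 20.3 in the dedifferentiated cap, so the order differed among the mature tissues. Mature cap had 73 of the 217 genes lower than stage 1 primordia (33.6%, against 15.1% of all genes tested) and 30 higher (13.8%, against 16.2%). The genes had a median log2 fold change of -0.43 (quartiles -1.86 and 0.53), beside 0.01 over all genes tested. Every mature cap library lay below every stage 1 library in 80 of the 217 genes (against 25.9% of all genes tested) and above in 38 (against 26.4%). Leaving out 1 library left 55 to 79 genes lower and 24 to 30 higher. Among the genes that reached the same count in early caps, 17.5% were lower and 14.1% higher. Without stage 3 stipe replicate 3, 104 of 295 genes were lower and 40 higher.

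Genes 7381 and 7380 had the largest falls. Gene 7381, at the mature cap values given above, had 1939, 2786 and 1468 FPKM in stage 1 primordia and a log2 fold change of -9.19 ± 1.62 (edgeR adjusted p = 9.6e-05). Gene 7380 had 10.7, 16.1 and 15.4 in mature cap, against 1759, 3562 and 1774 in stage 1 primordia (log2 fold change -7.40 ± 1.38, edgeR adjusted p = 0.000178). Both were high in skin, at 1014, 680 and 1911 for gene 7381 and 954, 958 and 1518 for gene 7380. In mycelium both were high in replicate 1 alone, with 8378 FPKM for gene 7381 and 7177 for gene 7380, while the other mycelium libraries held 14.4 to 51.1.

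Gene 2685 rose most in mature cap, which held 485, 660 and 565 FPKM, against 8.01, 11.2 and 18.8 in stage 1 primordia (log2 fold change 5.49 ± 0.46, edgeR adjusted p = 4.6e-09). Mature stipe, at 481, 537 and 391, stood at a like level. The early cap bias of this gene, 270 to 332 in young caps against 21.1 to 45.3 in young stipes, was thus not seen between mature cap and mature stipe. Skin, at 769, 613 and 914, lay above every mature stipe library, but the log2 fold change of 0.71 was not called. Gene 9179 had 33.9, 71.4 and 25.7 in mature cap, against 3.45, 1.85 and 1.65 in stage 1 primordia (log2 fold change 4.26 ± 0.61, edgeR adjusted p = 9.45e-06), and held 307, 210 and 235 in skin.

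Stage 1 primordia, in which cap and stipe were not sampled apart, were compared with mycelium. In primordia 45 of the 217 genes were higher (20.7%, against 19.3% of all genes tested) and 84 lower (38.7%, against 27.9%). The share higher was near that of all genes. Among genes that reached the same count in early caps, 23.7% were higher and 19.9% were lower. The 217 genes had a median log2 fold change of -0.52 (quartiles -2.24 and 1.01), beside -0.14 over all genes tested. Every stage 1 library lay above every mycelium library in 45 of the 217 genes (against 25.6% of all genes tested) and below in 82 (against 29.6%). Without stage 3 stipe replicate 3, 58 of 295 genes were higher and 117 lower.

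Gene 9255 had 731, 774 and 195 FPKM in stage 1 primordia, against 8.07, 11.5 and 6.78 in mycelium (log2 fold change 6.03 ± 0.56, edgeR adjusted p = 3.81e-09). Gene 7539 had 425, 306 and 491 in stage 1 primordia, against 0.871, 16.7 and 0.699 in mycelium (log2 fold change 6.09 ± 1.21, edgeR adjusted p = 0.000151), or 9.05 without mycelium replicate 2. In both, every stage 1 library lay above every mycelium library. Gene 5903 was the extreme the other way, at 3.30, 4.62 and 4.30 in stage 1 primordia, against 10390, 46315 and 36173 in mycelium (log2 fold change -12.90 ± 1.28, edgeR adjusted p = 9.34e-09). It was an early cap gene by its 18.7 to 78.9 FPKM in early caps, a level far below that of mycelium. Gene 3643 had 1.85, 1.72 and 1.70 in stage 1 primordia, against 71.6, 234 and 997 in mycelium (log2 fold change -7.96 ± 0.87, edgeR adjusted p = 4.34e-08), or -6.45 without mycelium replicate 3.

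The genes divided by the mature tissue in which their mean log2 FPKM was highest. Skin was highest for 97 genes (44.7%, against 9.39% of all genes in the table), lamellae for 55 (25.3%, against 25.4%) and the dedifferentiated cap for 54 (24.9%, against 30.5%). Mature stipe was highest for 9 (4.15%, against 20.3%) and mature cap for 2 (0.922%, against 14.4%). Mature cap was the lowest of the 5 tissues for 85 genes (39.2%, against 15.5%). These are counts with no test. With genes chosen without stage 3 stipe replicate 3, skin was highest for 110 of 295 genes (37.3%).

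These divisions also differed in groups that did not define them, although the stage 3 and young caps had chosen the genes. The 97 genes highest in skin had a median log2 FPKM of 6.0 in stage 3 caps and 5.93 in young caps, and 4.07 in stage 1 primordia. Those 55 highest in lamellae had 5.28, 4.70 and 3.58 in the same groups. The 54 genes highest in the dedifferentiated cap had the lowest early cap medians of the 3 divisions, 4.37 and 4.44, and the highest median in mycelium, 4.92, beside 4.04 for the skin division and 3.63 for the lamellae division. The 9 genes highest in mature stipe had lower early cap medians still, 4.046 and 4.125, and a median of 4.824 in mycelium. These medians are a description of the divisions, with no test and without medians of all genes divided in the same way.

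**Figure D3:**
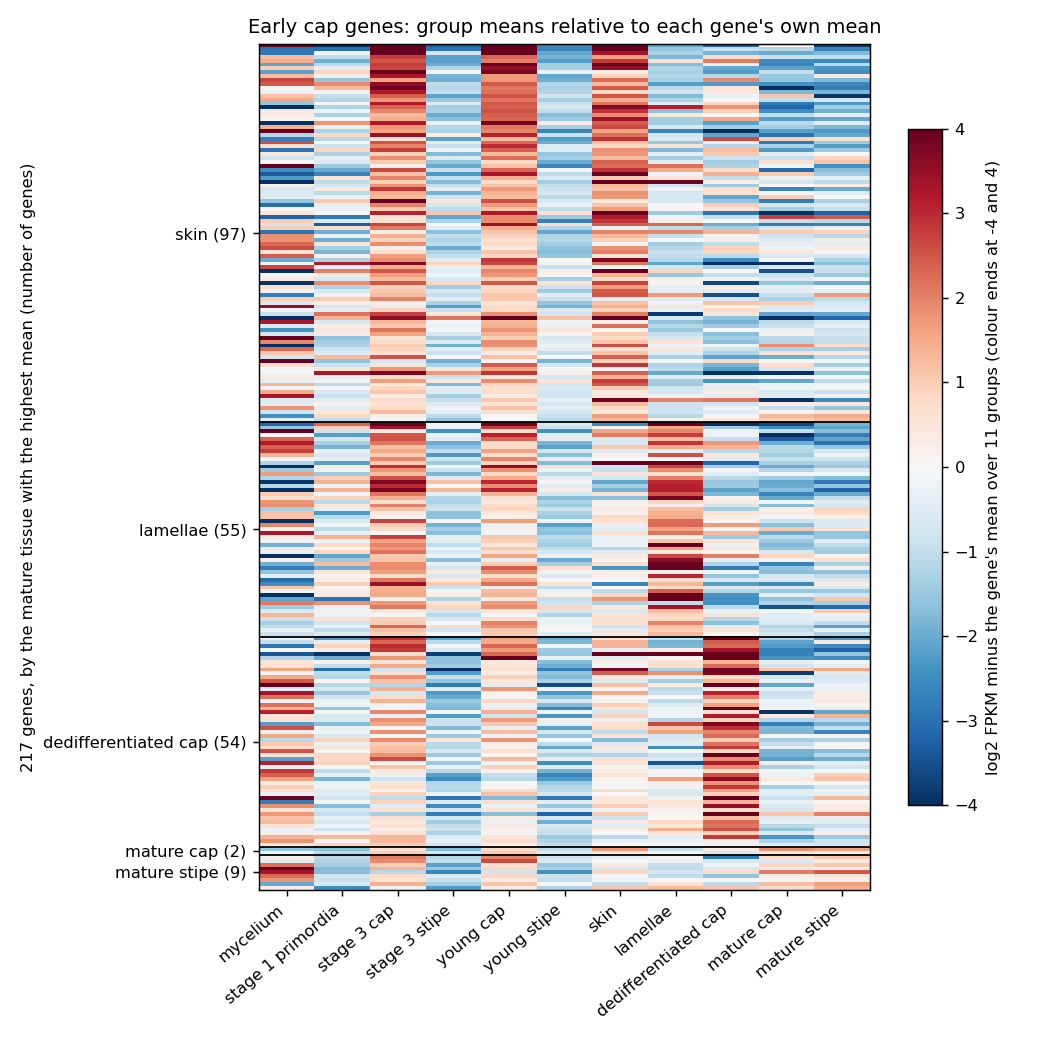
Group mean log2 FPKM of each of the 217 early cap genes (rows), minus the gene's own mean over the 11 groups (columns); rows are sorted by the mature tissue with the highest mean and then by the early margin, and the colour scale ends at -4 and 4. Of the rows, 97 are highest in skin, 55 in lamellae and 54 in the dedifferentiated cap, and the mature cap column is pale or blue in most of them.

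Levels at maturity can be set beside those of the young cap only as a description, because the young cap chose the genes. The median difference in mean log2 FPKM from young cap was -0.29 in skin and -1.07 in lamellae, and it was -1.13 in the dedifferentiated cap, -2.03 in mature cap and -1.83 in mature stipe. In skin 154 of the 217 genes (71.0%) were no more than 1 log2 unit below young cap, against 60 (27.6%) in mature cap. Over all genes of the table these shares were 86.6% and 79.9%.

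The same 2-fold rule turned round gave 116 early stipe genes, higher in stipe than in cap at both stages. Of these, 2 were higher (1.72%, against 3.33% of all genes tested) and 14 lower (12.1%, against 1.07%) in skin than in mature cap, with a median log2 fold change of -0.52. In lamellae 3 were higher (2.59%, against 14.1%) and 76 lower (65.5%, against 13.2%) than in mature cap, with a median of -2.01. Compared with mature stipe, 0 were higher (against 0.222% of all genes tested) and 9 lower (7.76%, against 1.46%) in mature cap. In skin 3 were higher (2.59%, against 4.35%) and 50 lower (43.1%, against 4.99%) than in mature stipe. In lamellae 2 were higher (1.72%, against 16.7%) and 88 lower (75.9%, against 17.6%) than in mature stipe. Mature stipe was the highest mature tissue for 70 of the 116 genes (60.3%, against 20.3% of all genes in the table). The difference between the lists was not tested.

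The gene models were close in length to those of the rest of the table. The length implied by counts and FPKM had a median of 1011 bases in the early cap genes (quartiles 605 and 1413), against 976 bases in the 10062 genes of the table with at least 100 counts in some library (quartiles 513 and 1567). Fractional counts, which can come from reads shared between genes, occurred in some library for 47 of the 217 genes (21.7%, against 24.3% of all genes in the table), and in at least 16 of the 32 libraries for 5.

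**Figure D4:**
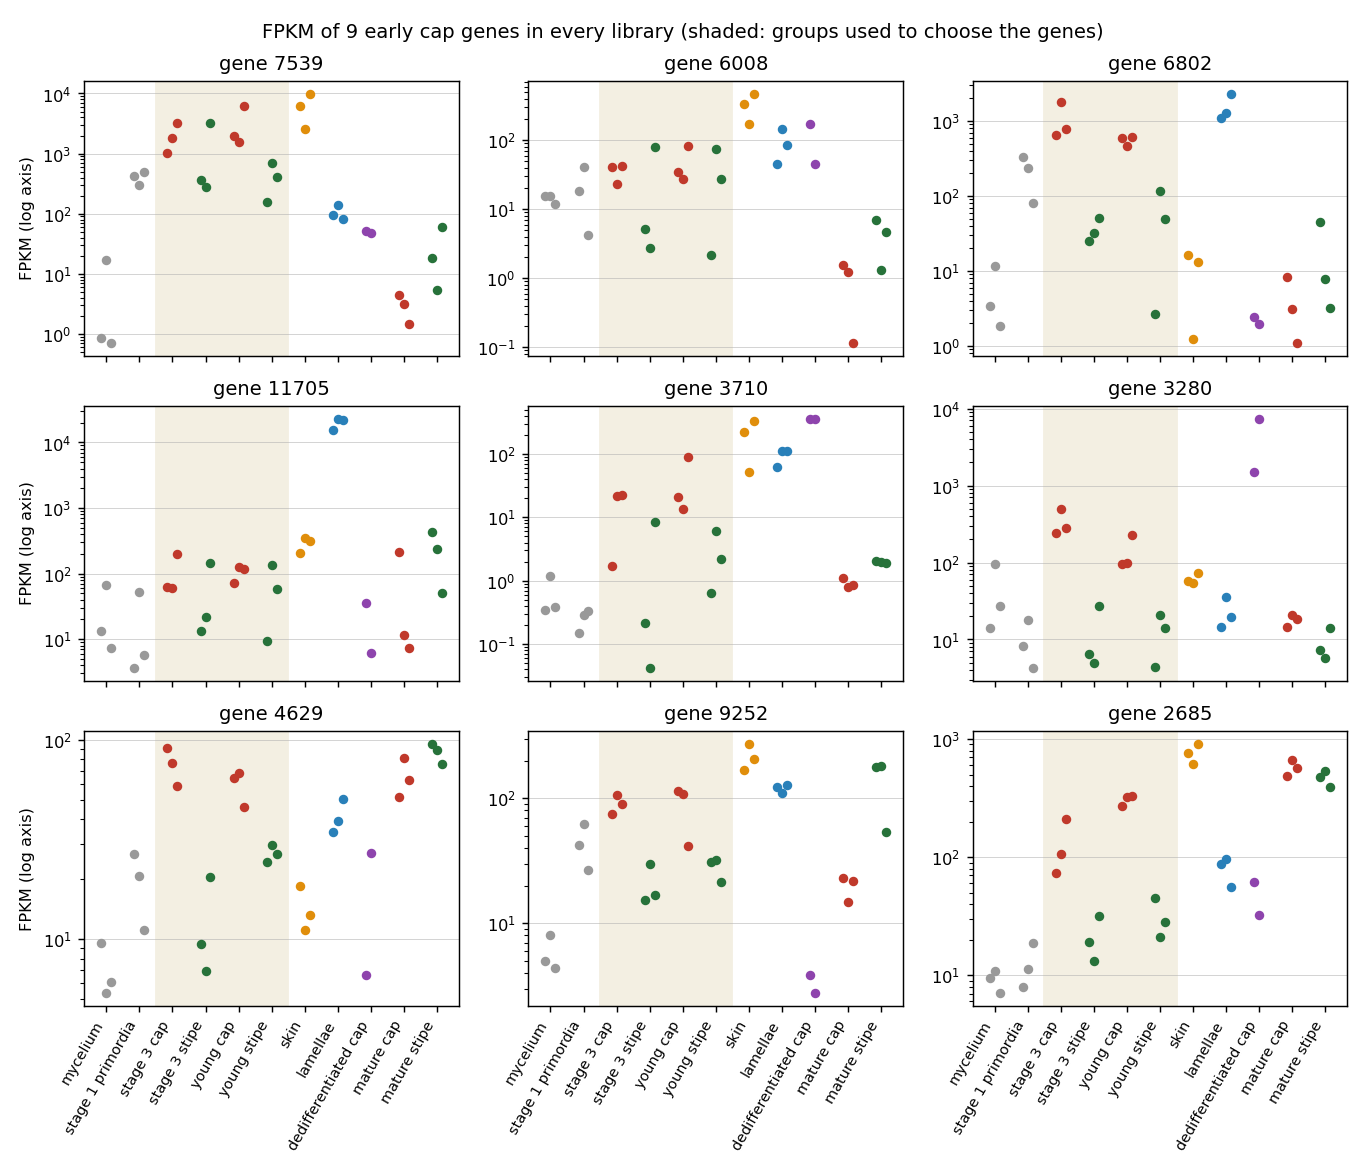
FPKM (log axis, own scale per panel) in every library of 9 of the named early cap genes, chosen after their values were seen; points are libraries and the shaded groups chose the genes. Among the mature tissues genes 7539 and 6008 are highest in skin, genes 6802 and 11705 in lamellae and genes 3710 and 3280 in the dedifferentiated cap, while gene 4629 is lowest in skin and the dedifferentiated cap, gene 9252 lies lower in mature cap than in mature stipe, and gene 2685 is at 391 to 660 FPKM in both.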

How the data were processed

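The authors deposited an expected count per gene and library, in part fractional (95.2% of values above 0 were whole within 0.000001), and a table of log2 FPKM values for 10755 of the 12329 genes. STAR, featureCounts, R 3.0.2, edgeR 3.4.2 and limma 3.18.13 are named in the submitters' processing notes, without roles; their genome build is not given here. Counts were rounded, filtered (filterByExpr, 10814 genes kept), scaled by TMM and fitted with one mean per group over all 32 libraries by the quasi-likelihood test of edgeR 4.0.16 in R 4.3.3, after a check on simulated data; DESeq2 1.42.0 was an alternative. A call needed at least a 2-fold change and a p below 0.05 after Benjamini-Hochberg adjustment over all genes tested. The fold changes come from counts, and the levels from the deposited log2 FPKM values, turned back to FPKM.

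Replicates were numbered as in the sample titles; for the dedifferentiated cap the titles say 1 and 2 and the descriptions 2 and 3, so its replicate block rests on that choice. Between replicates of a group, chi-square per degree of freedom was 19.6 or more, so no library was counted as a copy. The labels call the replicates biological. Stage 3 stipe replicate 3 stood apart (TMM factor 0.690, the lowest), and results are also given without it.

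The members and lists were chosen with earlier results of these data known. Named genes are, per comparison, the 2 largest rises and 2 largest falls among called members whose groups both averaged 10 counts or more and whose libraries did not overlap, plus those at the largest margin and at the limit. The alternatives were library size or DESeq2 size factors as scaling, a fit to all genes unfiltered, a fit to the compared groups, the DESeq2 test, a replicate block, leaving out each library, and members chosen without stage 3 stipe replicate 3; leaving it out of the fit as well, and the comparison with genes above the count requirement, were added after seeing the data.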

Additional observations from a re-analysis of the deposited data

Results flagged for a closer look

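A pair of named genes were above stipe in every cap library at the early stages, below it in every cap library at maturity, and called at maturity. This difference between stages was not tested, because the early stages had chosen the genes. Gene 9252 had 75.3 to 106 FPKM in stage 3 caps against 15.2 to 29.6 in stage 3 stipes, and 41.3 to 115 in young caps against 21.3 to 32.4 in young stipes. In mature bodies its log2 fold change of cap against stipe was -2.80, and skin, at 168 to 274 FPKM, overlapped the stipe at 54.0 to 180. Gene 7381 had 2590 to 2957 FPKM in stage 3 caps against 513 to 990 in stage 3 stipes, and 1164 to 1997 in young caps against 115 to 368 in young stipes. In mature bodies its log2 fold change of cap against stipe was -5.11, a call that passed narrowly (edgeR adjusted p = 0.0491), was lost under 11 of 13 alternatives, the replicate block and each left-out library among them, and became -3.16 without mature stipe replicate 3. Gene 7380 had the same order in every library, at 10.7 to 16.1 FPKM in mature cap against 38.1 to 300 in mature stipe, but its log2 fold change of -3.17 was not called (edgeR adjusted p = 0.190).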

How the results depend on the processing

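Of the 16 counts of genes called in 8 comparisons, those of genes higher in skin, higher in lamellae, and called in mature cap against stage 1 primordia or in stage 1 primordia against mycelium stayed within 1.5 times of the reported value under all alternatives run. For genes lower in mature cap than in mature stipe (5 reported), library size alone gave 3, the replicate block 3, only the compared groups 11, the DESeq2 test 10, and fit and members without stage 3 stipe replicate 3 gave 8; for those higher (4 reported) the DESeq2 test gave 7, and library size alone turned the split to 5 higher and 3 lower. Genes lower in skin than in mature stipe (4) became 7 with only the compared groups, and those lower in skin than in mature cap (1) became 3 with only the compared groups and 2 with DESeq2 size factors, the DESeq2 test, or fit and members without stage 3 stipe replicate 3. Library size alone gave 14 genes lower in lamellae than in mature stipe (26) and 13 lower than in mature cap (21); it moved the median of all genes by -0.22 to 0.40 over the 8 comparisons. Genes higher in the dedifferentiated cap (88) became 134 with fit and members without stage 3 stipe replicate 3, a longer list.

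Leaving out 1 library at a time gave, for mature cap against mature stipe, 0 to 4 genes higher and 1 to 3 lower (the count of 0 came from edgeR without mature stipe replicate 1, with 9 positive values at an unadjusted p under 0.05). It gave 68 to 80 higher and 1 to 4 lower in skin than in mature stipe, 70 to 80 higher and 1 lower in skin than in mature cap, 62 to 69 higher and 17 to 23 lower in lamellae than in mature stipe, and 67 to 82 higher and 14 to 24 lower in lamellae than in mature cap. For the dedifferentiated cap it gave 77 to 81 higher and 13 to 19 lower, for mature cap against stage 1 primordia 24 to 30 higher and 55 to 79 lower, and for stage 1 primordia against mycelium 39 to 46 higher and 75 to 88 lower. The number of chosen genes ran from 193 to 295 when 1 early library was left out, was highest without stage 3 stipe replicate 3 (202 genes shared, 93.1% of the 217 and 68.5% of the 295), and was 65 with a margin of at least 2. Deviations from the group means were correlated between same-numbered replicates, with values from -0.562 to 0.609. The correlations were above 0.1 for every pair in 0 of 8 comparisons. For lamellae against mature cap they were 0.587, 0.609 and -0.096 in replicates 1, 2 and 3. For skin against mature cap they were -0.350, -0.562 and 0.034. Whether the numbers pair the samples was not tested. Of the 16 counts, the replicate block moved only that of genes lower in mature cap than in mature stipe by over 1.5 times. Among the named genes, 379 of 399 recomputed values kept direction and call, the other 20 lost the call, and 0 turned direction in these alternatives. Counts near 0 in mature cap and stipe limit how exactly the largest changes are known.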
